A study of Vitis labrusca x Vitis vinifera with 9 samples.

Results

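Stilbene synthase 4 (GSVIVT00005194001) and an anthocyanidin 3-O-glucosyltransferase 2-like gene (GSVIVT00031498001) were followed in buds of grapevine after pruning (P), hydrogen cyanamide (HC) and the combination of both (PHC). They were picked by gene identifier as 2 of the 30128 genes on the array, 1 probe each, with their log2 ratios and both channel signals in all 3 treatments in view. Their levels are therefore given as a description, with no test. Buds came from 5-year-old vines of the hybrid cultivar Kyoho (Vitis vinifera x V. labruscana), from the eighth node above the cane base in late August, and were sampled 24 h after treatment. P buds stood on pruned canes treated with water, HC buds were sprayed with 1% HC, PHC buds stood on pruned canes sprayed with 1% HC, and control buds on unpruned canes were sprayed with water. Whether the HC canes were cut is not settled, since their sample labels call them pruned whereas the study's methods state that HC was sprayed without pruning. Each treatment had 3 arrays, and each replicate pooled the buds of 10 nodes from field-grown canes set out in 3 blocks. The replicates are therefore pools of buds of 1 cultivar at 1 time, and whole buds mix scales, leaf primordia and meristem. Shoot meristem genes could not serve as a check of the tissue, since 0 probes carried such a description in the array annotation.

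Stilbene synthases join a phenylpropanoid-derived starter to malonyl-CoA units and so make resveratrol, the parent of the stilbene phytoalexins that grapevine accumulates under infection, wounding and ultraviolet light. Chalcone synthase uses the same substrates to open the flavonoid branch. Anthocyanidin 3-O-glucosyltransferases act at the end of that branch, where they attach glucose to anthocyanidins and turn them into stable, vacuole-stored pigments. In grapevine the stilbene synthases form a large family of near-identical tandem copies, so a probe for 1 copy can also bind transcripts of others.

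On every array the treated RNA was labeled with Cy5 and the control RNA with Cy3 (0 dye swaps). Any preference of a probe for 1 dye is therefore part of its ratio. The log2 ratio of Cy5 to Cy3 is the measure used throughout, and a value of 1 is a 2-fold higher treated signal. The share of probes well above background was 80.6% to 88.9% in the control channel and 83.6% to 90.3% in the treated channel. The median Cy5 signal ran from 172 on the third HC array to 908 on the third PHC array, and the median Cy3 signal was between 103 and 107 on the 3 arrays numbered 1 against 176 to 244 on the others. Control signals were near-identical on arrays of 1 number (r of log2 Cy3 from 0.991 to 0.997 over probes). Between arrays of different numbers r was 0.977 to 0.993. The controls of the 3 treatments may therefore not be independent, and their values are given side by side. The tests of other probes given below took all arrays as independent, with a replicate block only as an alternative.

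Stilbene synthase 4 had a higher signal in treated than in control buds on all 9 arrays, by the most after HC and the least after P. After P its log2 ratios were 1.00, 0.80 and 1.34 on arrays 1, 2 and 3, a mean of 1.05 ± 0.28 (SD, n = 3) or 2.06-fold. After HC they were 6.47, 5.09 and 3.74, with a mean of 5.10 ± 1.36 (SD, n = 3) or 34.3-fold. After PHC they were 2.91, 3.71 and 4.40, with a mean of 3.67 ± 0.74 (SD, n = 3) or 12.7-fold. The 3 P arrays lay below every HC and PHC array, while the HC and PHC arrays overlapped.

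The anthocyanidin 3-O-glucosyltransferase 2-like gene was also higher on all 9 arrays, with its highest mean after PHC. Its log2 ratios after P were 0.70, 1.22 and 1.09, a mean of 1.00 ± 0.27 (SD, n = 3), which is 2.00-fold and lies at the edge of the 2-fold limit. After HC they were 2.32, 2.74 and 2.63, with a mean of 2.56 ± 0.22 (SD, n = 3) or 5.91-fold. After PHC they were 2.60, 3.78 and 3.48, with a mean of 3.29 ± 0.61 (SD, n = 3) or 9.76-fold. Here too the P arrays stood apart below all others, and the first PHC array fell inside the range of the HC arrays. The replicates of this gene spread less after HC than those of stilbene synthase 4, over a range of 0.42 log2 units against 2.72.

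As a background, 12.1% of the 26395 tested probes had every HC array above every P array, and 22.6% had every PHC array above every P array. The limma fit over all tested probes called 2.75%, 5.16% and 13.5% of them higher in P, HC and PHC buds, at an adjusted p under 0.05 and at least 2-fold. For lower calls the shares were 0.572%, 4.75% and 11.7%. Because the ratios and signals had been used to choose the genes, nothing is read from their place in these shares.

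**Figure D1:**
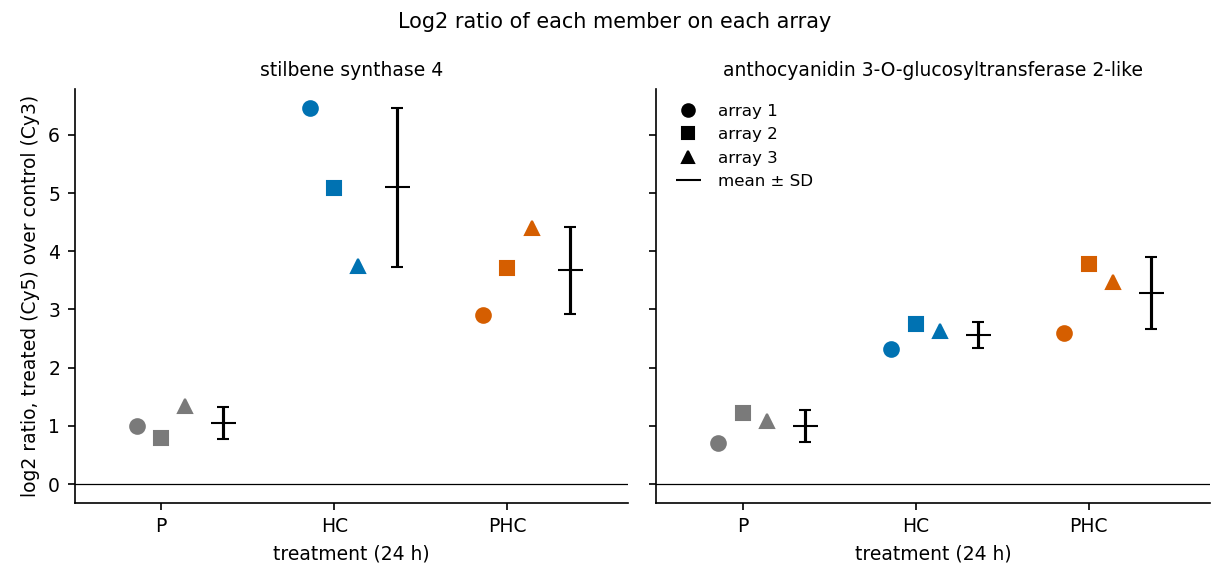
Log2 ratio of treated (Cy5) over control (Cy3) signal of stilbene synthase 4 (left) and the anthocyanidin 3-O-glucosyltransferase 2-like gene (right), by treatment. Circles, squares and triangles are arrays 1, 2 and 3, and the black bar is the mean ± SD of 3 arrays. Stilbene synthase 4 ran from 3.74 to 6.47 after HC, the glucosyltransferase from 2.32 to 2.74.

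The channel signals showed what lay behind these ratios. For stilbene synthase 4 the treated signal was well above background on all 9 arrays, but the control signal was so on only 6 of them. After background subtraction, Cy3 was 4.99, 1.34 and 5.05 on the P, HC and PHC arrays numbered 1, against backgrounds of 32.7, 34.0 and 32.1, and none of the 3 was well above background. On the arrays numbered 2 the control signal was 13.7 to 29.7, and on those numbered 3 it was 20.5 to 22.8. Within each treatment the array numbered 1 thus had the lowest control signal, and it did so too after scaling to the array's median Cy3 (0.0131 to 0.0472 against 0.0777 to 0.138 on the others). The largest ratio, 6.47 on the first HC array, coincided with the smallest control signal.

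The treated channel alone gave another order of the HC arrays. Scaled to the median Cy5 signal of its array, stilbene synthase 4 stood at 1.26, 4.74 and 1.45 on HC arrays 1, 2 and 3. On this scale the HC array with the highest ratio had the lowest treated signal of the HC arrays, and the second array the highest. Before scaling, the background-subtracted Cy5 signal was 287, 3751 and 250 on HC arrays 1, 2 and 3, so the third array was lowest. On the PHC arrays the scaled Cy5 signal was 0.317, 0.876 and 1.95, and on the P arrays 0.0822, 0.129 and 0.215. P arrays were again below all others, and HC and PHC arrays overlapped, with the share over all probes not worked out for this channel. The ratio is built from processed signals, which are also normalized, and the processed Cy3 signal of the first HC array was 8.08. The lowest processed Cy3 signal well above background on that array was 33.0. With the control signal raised to this floor and the deposited processing kept, the ratio of that array was 4.44, or 21.6-fold, and the HC mean was 4.42. Leaving out the first HC array gave a mean of 4.42 as well, a factor of 1.60 below 34.3-fold.

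The size of the stilbene synthase 4 response also depended on the background correction. With the normexp method, which models background and adds an offset of 50, followed by loess, the means for P, HC and PHC were 0.38, 2.67 and 1.95. With normexp and median centring they were -0.12, 2.80 and 1.98, so the direction after P turned while the other directions did not. The order HC, PHC, P of the means was the same under both. The first HC array was 3.80-fold with normexp and loess and 3.97-fold with normexp and median centring, below the 21.6-fold with the floor.

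For the glucosyltransferase both channels were well above background on all 9 arrays. Its control signal after background subtraction was 357 to 408 on the arrays numbered 1, 363 to 558 on those numbered 2 and 498 to 568 on those numbered 3. Scaled to the array's median, the control signal was 3.33 to 3.80 for number 1 and between 2.07 and 2.58 for the other numbers, so number 1, lowest in stilbene synthase 4, was highest in this gene. The scaled treated signal was 5.97, 5.49 and 4.74 on the P arrays, 16.6, 15.4 and 11.6 on the HC arrays, and 19.5, 26.3 and 23.6 on the PHC arrays. In this channel the 3 treatments did not overlap, unlike in the ratios. The share of all probes so separated in this channel was not worked out, and the signals were used to choose the gene. Nothing is read from that separation. Under normexp its means for P, HC and PHC were 0.98, 2.45 and 3.19 with loess and 1.28, 2.56 and 3.78 with median centring, and no direction turned. In whole buds, a change in the share of cells that express a gene cannot be told apart from a change in its RNA per cell.

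**Figure D2:**
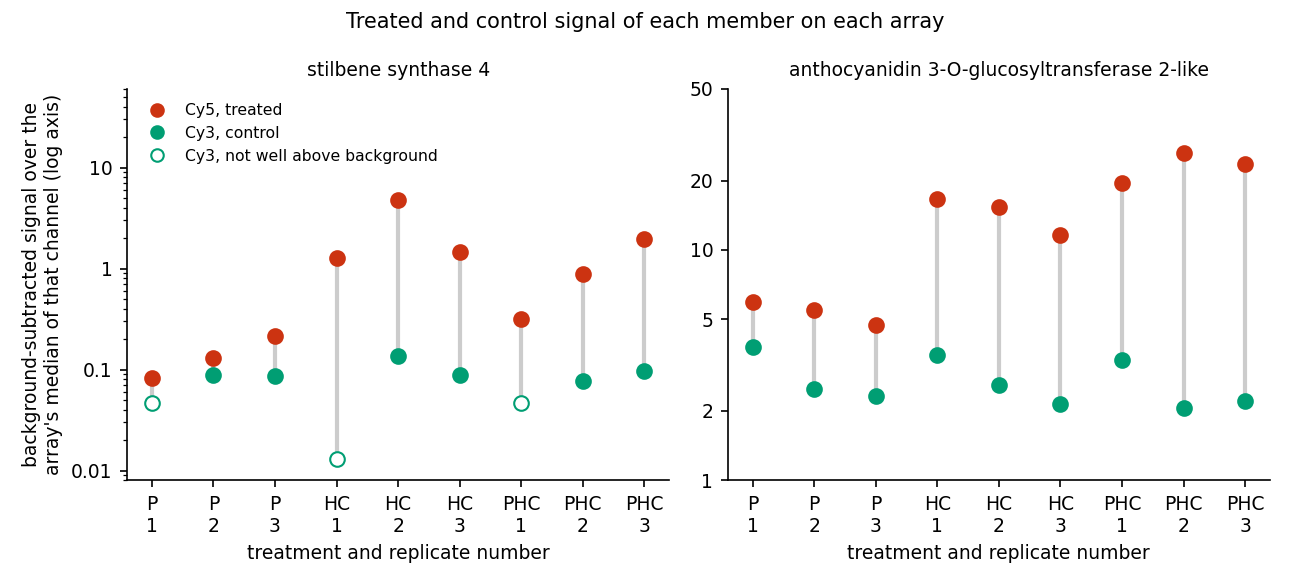
Background-subtracted treated (Cy5, red) and control (Cy3, green) signal of each gene divided by the array's median of that channel, on a log axis, for the 9 arrays named by treatment and replicate number. Open green circles are control signals not well above background, which occurred for stilbene synthase 4 on the arrays numbered 1, and each gray line joins the channels of 1 array.

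Between treatments the genes differed in the order of their means. Differences are also given between arrays of 1 number, as a description only, because the numbers are not known to pair the samples. For stilbene synthase 4 the PHC mean was lower than the HC mean (difference -1.43), with overlapping arrays, and PHC minus HC was -3.55, -1.38 and 0.65 for numbers 1, 2 and 3. The control signal was not well above background on the arrays numbered 1, and with Cy3 raised to its floor the first of these was -1.77. For the glucosyltransferase the PHC mean was higher by 0.72, again with overlapping arrays, and the differences by number were 0.28, 1.04 and 0.85. Scaling all arrays to 1 spread brought the means of that gene to 2.37 after HC and 2.39 after PHC, so that the difference between them nearly vanished. HC minus P was 1.62, 1.52 and 1.54 for the glucosyltransferase, nearly constant over the numbers, and 5.47, 4.29 and 2.40 for stilbene synthase 4, the first being 3.83 with Cy3 raised to the floor. Over all tested probes 20.9% had every PHC array above every HC array, which neither gene did. Each difference is a description, since the ratios chose the genes.

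On the log2 scale the PHC mean was below the sum of the P and HC means for both genes. For stilbene synthase 4, PHC minus the sum of P and HC was -2.47 on average, and -4.55, -2.18 and -0.69 for numbers 1, 2 and 3. For the glucosyltransferase it was -0.28 on average, and -0.42, -0.18 and -0.24 by number. The control RNA enters both terms of the sum, and with Cy3 raised to the floor the first value of stilbene synthase 4 was -2.37.

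The study's table of genes common to the treatments, which was itself chosen on these arrays, names 8 stilbene synthase probes and 2 anthocyanidin glucosyltransferase probes. A second probe carries the same locus name as stilbene synthase 4 (GSVIVT00007777001). Its log2 ratios were 2.50, 0.54 and 1.11 after P, 5.42, 4.98 and 3.94 after HC, and 3.71, 3.63 and 4.40 after PHC. As for the first probe, Cy3 was well above background on 6 of 9 arrays. The probes differed by up to 1.50 log2 units on 1 array and by as little as 0.000313, and their ratios correlated at r = 0.93 over the 9 arrays. That correlation is a description, since the arrays share treatments and may share controls.

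Of the 8 stilbene synthase probes, 7 had a higher mean after HC than after PHC, a count whose share over all probes was not worked out. In 7 every HC array lay above every P array, against 12.1% of all tested probes. In 6 every PHC array lay above every P array, against 22.6%, and in 2 every HC array lay above every PHC array, against 19.7%. The 8 probes were listed for a change in every treatment on these arrays and may bind the same transcripts, so they are not separate observations. By number, HC exceeded PHC in 7 of 8 probes in numbers 1 and 2 and in 4 of 8 in number 3. The stilbene synthase 1-like probe (GSVIVT00009218001) had the widest gap of the 8 between its lowest HC array and its highest PHC array (1.01), with means for P, HC and PHC of 1.17 ± 0.12, 3.67 ± 0.13 and 2.09 ± 0.38 (SD, n = 3) and Cy3 well above background on all 9 arrays. A stilbene synthase 4-like probe (GSVIVT00007353001) had 1.03 ± 0.26, 4.62 ± 0.25 and 3.17 ± 0.78 (SD, n = 3). Cy3 of this probe also passed the background flag on all 9 arrays, but after background subtraction it was only 9.29 to 12.7 on the arrays numbered 1, against 65.0 to 77.2 for the 1-like probe. The part of dim control signals in the order of HC and PHC was not tested.

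Another stilbene synthase 4-like probe (GSVIVT00004050001) followed a different course. Its means for P, HC and PHC were 2.08 ± 0.62, 1.38 ± 0.83 and 2.78 ± 0.67 (SD, n = 3), with HC the lowest of the means, and its r with stilbene synthase 4 was -0.10. The other probes of the family were a 2-like probe (GSVIVT00031885001) whose P, HC and PHC means were 1.19, 3.49 and 2.02, and further 4-like probes with 1.22, 2.92 and 2.06 (GSVIVT00008256001) and 1.60, 4.28 and 3.84 (GSVIVT00009243001). In the last, Cy3 was well above background on 4 of 9 arrays.

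The second anthocyanidin glucosyltransferase, annotated as 7-like (GSVIVT00031443001), was less regular than the 2-like gene. Its log2 ratios averaged 1.49 ± 0.73, 1.11 ± 1.14 and 1.92 ± 0.84 (SD, n = 3) in P, HC and PHC buds. The groups overlapped, and Cy3 was well above background on 4 of 9 arrays. Its r with the 2-like gene over the 9 arrays was 0.34.

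**Figure D3:**
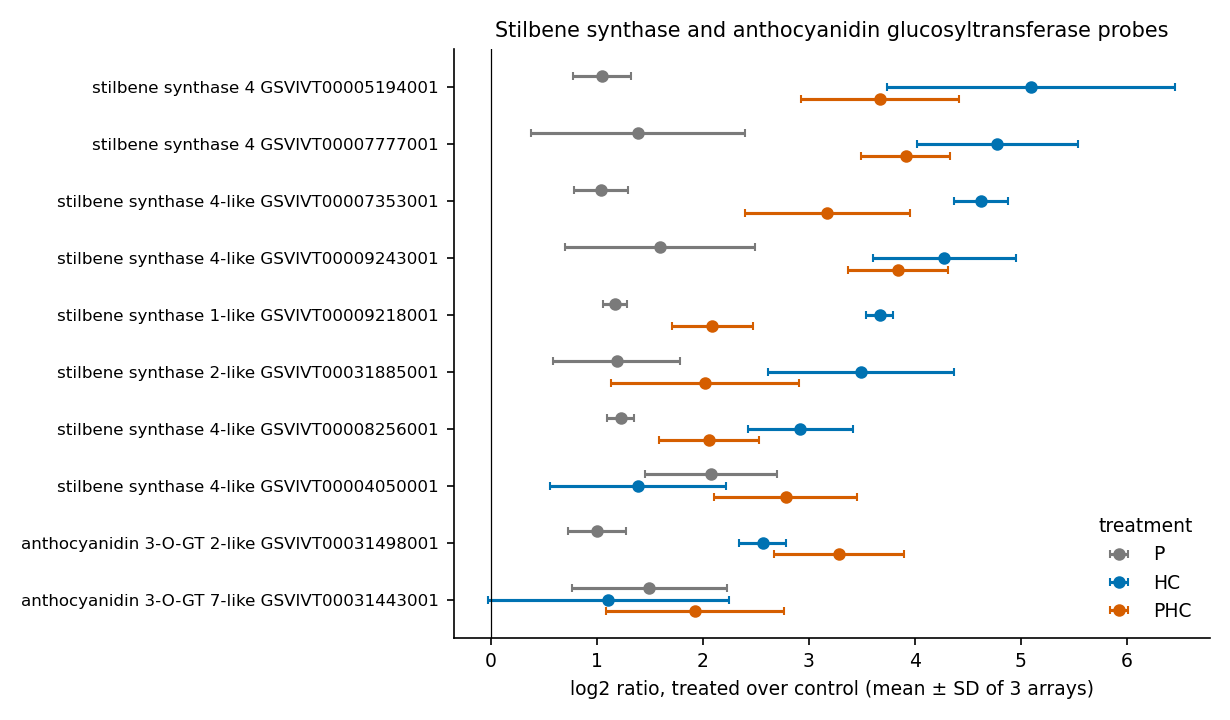
Mean log2 ratio ± SD of 3 arrays after P (gray), HC (blue) and PHC (orange) for the 8 stilbene synthase and 2 anthocyanidin 3-O-glucosyltransferase (GT) probes of the study's common table, sorted by the HC mean within each family. In 7 of the 8 stilbene synthase probes the HC mean lies to the right of the PHC mean, and in both glucosyltransferases it lies to the left.

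All 8 stilbene synthase probes carry a gene ontology identifier that stands for acyltransferase activity, shared by 78 probes on the array, of which 73 were tested. This group was formed after the values had been seen. After HC, 47 of the 73 were called higher and 3 lower, against 5.16% and 4.75% of all tested probes, and the group's median log2 ratio was 3.31 against -0.03 over all probes. After PHC, 37 were higher and 5 lower, against 13.5% and 11.7%, with a median of 1.50 against -0.07. After P, 7 were higher and 0 lower, against 2.75% and 0.572%, with a median of 0.35 against -0.03. The 73 include the 8 stilbene synthase probes of the common table, which were listed for a change in every treatment. Of the 65 others, 1, 39 and 29 were called higher after P, HC and PHC, and 0, 3 and 5 lower. Nothing is therefore read from the 7 after P. Unlike the HC counts, the counts of the 73 after P and PHC depended on single arrays. Without P array 1, 2 or 3 the number called after P was 3, 1 or 2, and without PHC array 3 the number called after PHC was 25, against 42 with all arrays.

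Probes of the group outside the common table rose after HC as well. Of the 65 other tested probes of the group, 39 were called higher after HC, with log2 ratios from 1.26 to 4.74 and a median of 3.93, and 29 of them lay between 3.5 and 4.5. For 36 of the 39, Cy3 was well above background on all 9 arrays. After PHC, 24 of the same 39 were called higher and their median was 1.68. The 39 were chosen by their HC call, so nothing is read from HC exceeding PHC among them. After P their median was 0.36 and 0 were called by limma. Probes changed by every treatment sit in the common table and not in this set, which partly fixed that count. The array annotation gives these probes no gene name. Their near-equal ratios cannot be told apart from binding of the same transcripts by probes of near-identical copies.

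**Figure D4:**
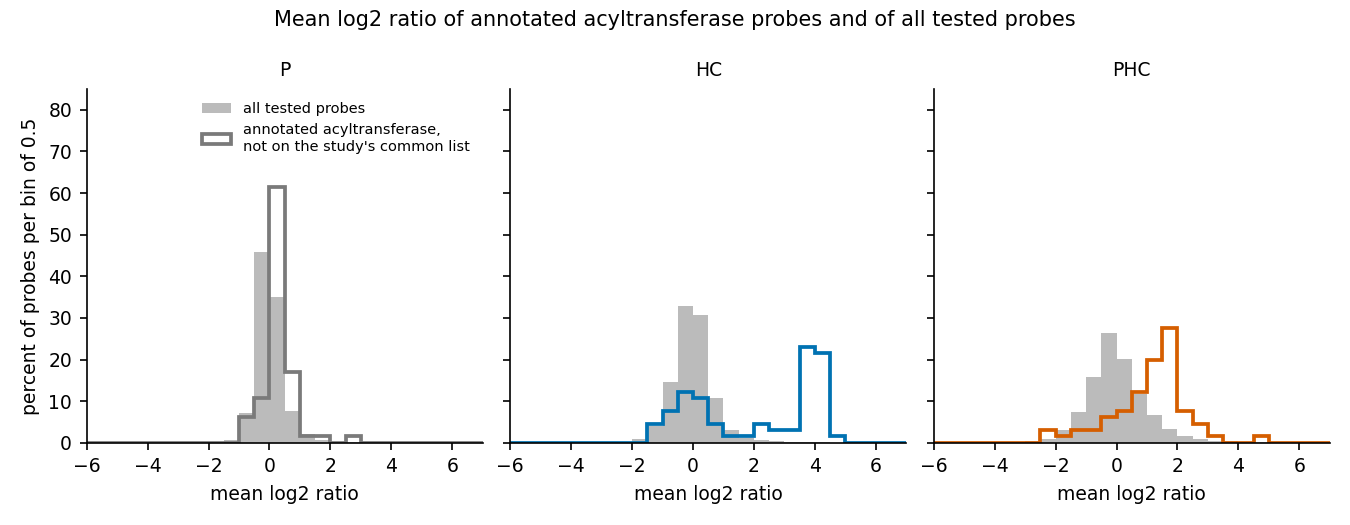
Distribution of mean log2 ratios after P, HC and PHC, as the percent of probes per bin of 0.5, for all 26395 tested probes (gray, filled) and for the 65 tested probes annotated with acyltransferase activity that are not on the study's common table (outline). After HC the outline has a second peak, where 29 probes lie between 3.5 and 4.5.

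The glucosyltransferase carries the broad term metabolic process, shared by 486 probes of which 430 were tested. In this group 15, 68 and 106 were called higher in P, HC and PHC buds, and 2, 38 and 45 lower. Higher calls made up 3.49%, 15.8% and 24.7% of the group, against 2.75%, 5.16% and 13.5% of all tested probes. Lower calls made up 0.572%, 4.75% and 11.7% of all tested probes. The medians were -0.02, -0.08 and 0.14, against -0.03, -0.03 and -0.07 over all tested probes.

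The pathway around both genes was read from 17 probes whose Arabidopsis homolog descriptions name its enzymes or their families. All 17 were tested. With limma, 0 were called in P buds, 2 were higher and 1 lower in HC buds, and 4 were higher and 4 lower in PHC buds. Called shares of all probes were 3.32%, 9.91% and 25.1%. The median log2 ratio of the 17 was -0.01, 0.03 and -0.37. Without HC array 2, 0 of the 17 were called after HC. With no fold limit, 4, 5 and 12 of the 17 passed the adjusted p of 0.05 in P, HC and PHC buds. Of the 26395 tested probes, 3194, 8925 and 14681 did so. An unadjusted p under 0.05 was found for 8, 9 and 14 of the 17, and the share over all probes was not worked out for it.

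Both probes described as chalcone and stilbene synthase family homologs were called lower after PHC, opposite to the stilbene synthases above. GSVIVT00036027001 had -2.39 ± 0.30 after PHC (SD, n = 3, limma adjusted p = 6.62e-06), and -0.84 ± 0.09 after P and -0.30 ± 0.27 after HC. GSVIVT00019144001 fell by 1.13 ± 0.44 after HC (SD, n = 3, limma adjusted p = 0.000906) and by 1.77 ± 0.05 after PHC (limma adjusted p = 2.88e-05). The Arabidopsis homologs named for them belong to the anther-type members of that family, which make sporopollenin precursors and not stilbenes.

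4-coumarate-CoA ligases activate phenylpropanoid acids for both branches. The homolog descriptions place 3 probes in that family only, and whether their enzymes act on those acids was not tested. Of the 3, 2 rose after PHC, GSVIVT00003591001 by 2.34 ± 0.14 and GSVIVT00017901001 by 2.06 ± 0.35 (SD, n = 3, limma adjusted p = 8.93e-05 and 1.88e-05). Neither was called after P or HC, where they had 0.75 and 0.97, and 0.72 and 0.39. Flavonoid enzymes build the precursors of anthocyanidins. The homolog descriptions of 4 probes name such enzymes by family or as related only, and whether their enzymes act in that branch was not tested. Of the 4, a chalcone-flavanone isomerase family probe (GSVIVT00029440001) rose by 1.04 ± 0.07 after PHC (SD, n = 3, limma adjusted p = 0.00168). A dihydroflavonol 4-reductase family probe (GSVIVT00027441001) rose by 1.01 ± 0.04 after HC (SD, n = 3, limma adjusted p = 0.00123), and both lay just past the 2-fold limit.

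Lignin branch enzymes compete for the same activated acids. The homolog descriptions of 8 probes name such enzymes by family, as related or as putative only. Whether their enzymes act in that branch was not tested. Of the 8, a cinnamoyl-CoA reductase family probe (GSVIVT00028610001) rose by 1.89 ± 0.54 after PHC (SD, n = 3, limma adjusted p = 0.000854). A cinnamoyl-CoA reductase-related probe (GSVIVT00020726001) rose by 1.00 ± 0.36 after HC (limma adjusted p = 0.00184). A further cinnamoyl-CoA reductase family probe (GSVIVT00024039001) fell by 1.55 ± 0.16 after PHC and a putative caffeoyl-CoA 3-O-methyltransferase (GSVIVT00019520001) by 1.53 ± 0.32 (SD, n = 3, limma adjusted p = 1.93e-05 and 0.000709). The lists for flavonoid glycosyltransferases and for anthocyanin regulators and transport matched 0 probes.

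The common table also names upstream enzymes, which were singled out here after their values had been seen. Cinnamate 4-hydroxylase CYP73A100 (GSVIVT00017017001), which makes coumaric acid for both branches, had means for P, HC and PHC of 1.06 ± 0.34, 4.46 ± 0.72 and 2.66 ± 0.61 (SD, n = 3), the same order of means as stilbene synthase 4. Phenylalanine ammonia-lyase (GSVIVT00013937001 and GSVIVT00013939001), the entry step, stayed near 2-fold in each treatment, with means of 1.04 to 1.18. The flavonoid 3',5'-hydroxylase 2 probes, for enzymes that set the hydroxylation of anthocyanidins, ran in opposite directions. GSVIVT00000646001 had 2.68, 1.50 and 3.41 as its P, HC and PHC means, whereas GSVIVT00022293001 had -1.07, -1.84 and -2.17.

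Likeness to each gene was measured by Pearson's r of the log2 ratio over the 9 arrays, against 26034 probes well above background in Cy5 on at least 6 arrays. These arrays may share controls and fall into 3 treatments, so r mostly follows the order of the treatments. For stilbene synthase 4, 130 probes had r over 0.9 (0.499% of those compared). The named probes most like it were the stilbene synthase 4-like GSVIVT00007353001 (r = 0.95), a probable WRKY transcription factor 31 (GSVIVT00006872001, r = 0.94), a SEC14 family phosphoglyceride transfer protein (GSVIVT00024935001, r = 0.94), the second probe of its own locus (r = 0.93) and an embryo-abundant protein-related gene (GSVIVT00000688001, r = 0.93). The WRKY probe, for a family of DNA-binding regulators, had means of 0.18, 1.79 and 1.24 after P, HC and PHC.

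For the glucosyltransferase, 195 probes had r over 0.9 (0.749%). The named probes most like it were described as catalytic (GSVIVT00023699001, r = 0.98), tolB protein-related (GSVIVT00028181001, r = 0.97), nodulin MtN21 family (GSVIVT00028880001, r = 0.97), pentatricopeptide repeat-containing (GSVIVT00038824001, r = 0.96) and remorin family (GSVIVT00028350001, r = 0.96). They differed in size, since the tolB-related probe had means of -0.36, 1.62 and 2.13 and the nodulin family probe -0.37, -0.10 and 0.12 after P, HC and PHC. Among all probes compared, the named probes ranked 13 to 44 by r for stilbene synthase 4 and 3 to 19 for the glucosyltransferase. Stilbene synthase 4 and the glucosyltransferase correlated with each other at r = 0.69. None of the named probes listed for one was listed for the other. Only 5 of 5066 named probes were kept for each, so nothing is read from that.

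**Figure D5:**
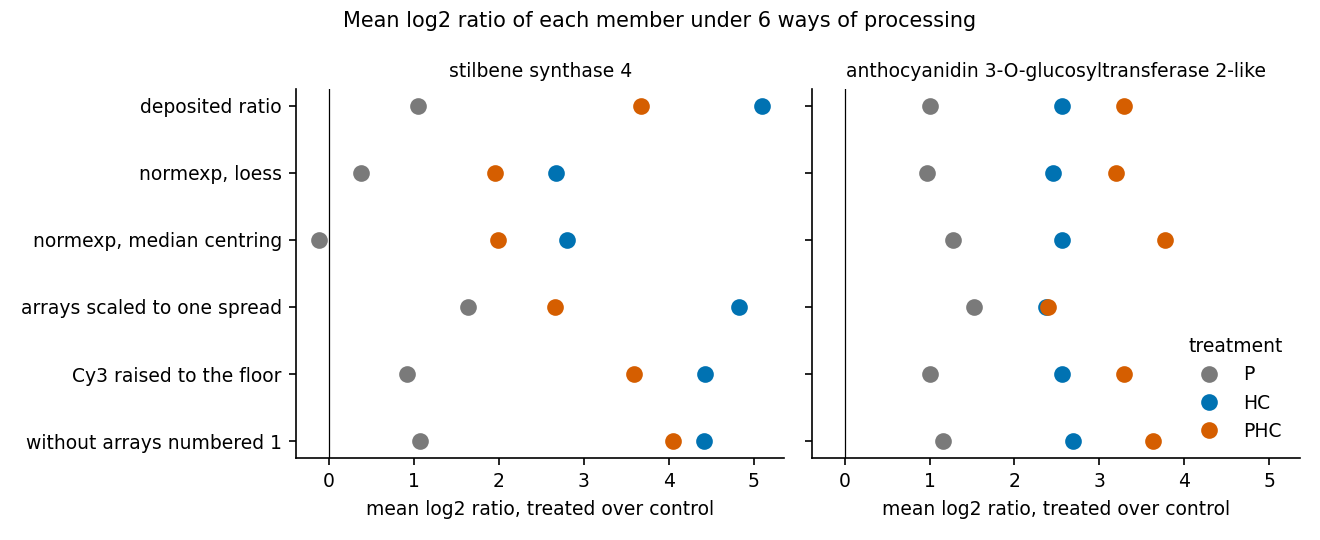
Mean log2 ratio of stilbene synthase 4 (left) and the anthocyanidin 3-O-glucosyltransferase 2-like gene (right) after P, HC and PHC under 6 ways of processing, listed at the left. Stilbene synthase 4 after P moved from 1.05 with the deposited ratio to -0.12 with normexp and median centring, and the glucosyltransferase after HC stayed between 2.37 and 2.68.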

How the data were processed

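The deposited log2 ratios were made by the authors with Agilent Feature Extraction 10.5, which subtracted background and applied rank-consistency LOWESS within each array. The deposited channel intensities of both dyes and their background flags were used as given. The series table held the same ratios to rounding (largest difference 0.005). Values of outlier spots (81) were not used, and saturation affected 0 spots. Probes with either channel well above background on all 3 arrays of a treatment, 26395 of 30128, were tested with limma 3.58.1 (R 4.3.3), with all 9 arrays in 1 fit, a mean per treatment and Benjamini-Hochberg adjustment. A probe was called at an adjusted p under 0.05 and at least 2-fold. P-values measure the spread between pooled bud samples and take the arrays as independent, which arrays of 1 number may not be. The fit was tested on simulated data with independent noise on each array, which does not cover likeness between arrays of 1 number.

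The genes and lists were chosen with earlier results of these data known. The named genes are both chosen genes, probes of the same locus, their families in the study's table, the 5 named probes most correlated with each, and up to 4 called genes per list. Lists were matched to homolog descriptions, held by 6981 probes. Probe sequences were not used here. The number of arrays limits the precision. Alternatives were normexp correction with loess or median centring, the series table, a common spread, other filters on dim probes, no fold limit, a replicate block and leaving out arrays, and, chosen after seeing the data, a floor for Cy3 and leaving out the arrays numbered 1.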

Additional observations from a re-analysis of the deposited data

How the results depend on the processing

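Alternatives to the deposited ratio moved stilbene synthase 4 more than the glucosyltransferase. For stilbene synthase 4, normexp with loess gave log2 changes for P, HC and PHC of 0.38, 2.67 and 1.95, and normexp with median centring gave -0.12, 2.80 and 1.98, the one change of direction. The cause was not tested. Arrays scaled to one spread gave 1.64 after P and 2.66 after PHC. The glucosyltransferase had 1.28 after P with normexp and median centring, and 1.53 after P and 2.39 after PHC with scaled arrays. Leaving out 1 array at a time gave stilbene synthase 4 ranges of 0.90 to 1.17 after P, 4.42 to 5.78 after HC and 3.31 to 4.05 after PHC, and the glucosyltransferase 0.89 to 1.16, 2.47 to 2.68 and 3.04 to 3.63. The other alternatives moved each mean by less than 1 SD. The filter asking for both channels above background removed stilbene synthase 4. List genes called after P were 0 in the main fit, 1 with normexp and median centring, 5 with scaled arrays and 4 with no fold limit. After HC the count was 3, against 1 with normexp and loess, 1 with scaled arrays and 5 with no fold limit, and it ran from 0 to 3 as arrays were left out. Calls over all probes ran from 256 (without P array 2) to 3194 (no fold limit) after P against 876, from 1520 (normexp with loess) to 8925 (no fold limit) after HC against 2616, and from 3523 (scaled arrays) to 14681 (no fold limit) after PHC against 6635. Annotated acyltransferases called after P were 7, against 4 with normexp and loess, 16 with scaled arrays and 14 with no fold limit, and after PHC 42, against 25 with scaled arrays, 54 with the replicate block, 56 with normexp and median centring and 57 without the arrays numbered 1. Deviations of arrays with the same number correlated at over 0.1 in 8 of 9 pairs (0.00309 to 0.628). Among arrays of different numbers this held in 3 of 18 pairs (-0.549 to 0.322). The main fit did not take the numbers as pairs, because they are not known to pair the samples. In addition, 9 of the 9 arrays correlated best with an array of their own number, a hint from the data and not from the design. With the replicate block, 995, 2729 and 6746 probes were called, and the means of both genes stayed at 1.05, 5.10 and 3.67, and 1.00, 2.56 and 3.29.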
